A study of Mus musculus with 8 samples.

Results

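The mucin genes are 10 genes of the mouse that encode the long, heavily O-glycosylated proteins of mucus and of the apical cell surface. They were taken by symbol from a table of read counts for 53170 named genes in 8 RNA libraries. Of the 10, Muc2, Muc5ac, Muc5b and Muc6 encode gel-forming mucins, which are secreted, and Muc1, Muc3, Muc4, Muc13, Muc16 and Muc20 encode membrane mucins. The libraries come from organoids grown for 5 days in growth medium from glandular stomach (hindstomach) epithelium of mouse embryos at embryonic day 18.5. The 4 control libraries have the genotype Shh-Cre, a Cre recombinase expressed from the Shh locus, which is active in foregut epithelium. The other 4, called YAP5SA, have Shh-Cre together with YAP5SA, a form of the transcriptional coactivator YAP that the Hippo kinases cannot restrain. All 8 libraries therefore carry the Cre allele. The labels do not say whether libraries of a group came from separate embryos or cultures, so a p-value here reflects library-to-library spread, and that spread may be technical.

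Gel-forming mucins share cysteine-rich domains through which they join into polymers, and their central repeats carry so many O-glycans that the secreted polymer swells into a gel. In the adult stomach the surface gel is built from Muc5ac of pit cells, and Muc6 is made by the mucous cells of the neck and glands, while Muc2 is the mucin of intestinal goblet cells and Muc5b is best known from airways. Membrane mucins stay anchored in the apical membrane, form part of the glycocalyx and, in the case of Muc1 and Muc4, bind receptors of the ERBB family.

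Total counts ran from 13672268 to 19710648 per library. Levels are in CPM (read counts scaled to library size). The epithelial markers Epcam, Cdh1, Krt8, Krt18 and Krt19 summed to 7452 to 7977 CPM in controls and 6147 to 6405 CPM in YAP5SA. The 7 mesenchymal markers summed to at most 4.23 CPM. The 5 immune markers summed to 18.8 to 38.2 CPM in controls and 9.30 to 10.4 CPM in YAP5SA, most of it Cd68. The 5 endothelial markers summed to 6.57 to 13.8 CPM in controls and 1.29 to 2.83 CPM in YAP5SA. Cd68 and Tek fell, Csf1r and Tie1 rose, and the other immune and endothelial markers were below the filter. The gastric identity markers Sox2, Cldn18, Gata4, Gata6, Barx1, Tff2 and Pgc summed to 2021 to 2155 CPM in controls and 86.2 to 94.99 CPM in YAP5SA. Barx1 had no count in any library, controls included. Of the 6 tested markers, 5 fell and 1 rose, Sox2 (30.6 ± 1.7 to 47.6 ± 4.3 CPM). Most of the control sum was Cldn18 (1353 ± 42 CPM) and Pgc (586 ± 65 CPM). Cldn18 fell to 2.05 ± 1.31 CPM and Pgc to 1.07 ± 0.65 CPM, while Gata6 fell less, from 30.2 ± 4.3 to 18.4 ± 1.5 CPM. Xist was at 676 to 1049 CPM in controls and at most 2.76 CPM in YAP5SA, and the Y-linked gene Ddx3y at most 0.325 CPM in controls and 68.2 to 75.6 CPM in YAP5SA. Sex and genotype cannot be told apart in any comparison given here. Mouse Yap1 did not pass the test (160.0 ± 7.2 and 153 ± 4 CPM, adjusted p = 0.339, edgeR); the labels do not say whether the transgene would be counted on it.

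The windows before the transcription starts of 5 mucin genes that changed are shown because these genes moved in different directions and by different amounts. Of the 10 genes, 8 matched the RefSeq promoter table by symbol (build GRCm38.p6). Muc5ac and Muc5b did not, so no window can be shown for Muc5b, which also changed. The 250 bases before the start are printed 5′ to 3′ on the strand of the gene, with capitals for matches on either strand to any of 5 motifs. The letters CATTCC stand for TEAD factors, the DNA-binding partners of YAP. The letters AGATAA stand for GATA factors and the letters CCACCC for KLF factors. Forkhead factors were searched as TGTTTAC, and the AP-1 motif was searched under the letters TGANTCA. Muc6 lies at chr7:141655394-141655643 on the minus strand, Muc2 at chr7:141690090-141690339 on the plus strand, Muc1 at chr3:89228806-89229055 on the plus strand, Muc4 at chr16:32735636-32735885 on the plus strand and Muc20 at chr16:32797436-32797685 on the minus strand.
Muc6: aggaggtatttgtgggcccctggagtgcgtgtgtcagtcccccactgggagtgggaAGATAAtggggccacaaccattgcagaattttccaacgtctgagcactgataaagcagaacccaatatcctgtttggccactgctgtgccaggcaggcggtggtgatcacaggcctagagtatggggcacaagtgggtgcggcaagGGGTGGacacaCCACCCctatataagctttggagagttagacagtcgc
Muc2: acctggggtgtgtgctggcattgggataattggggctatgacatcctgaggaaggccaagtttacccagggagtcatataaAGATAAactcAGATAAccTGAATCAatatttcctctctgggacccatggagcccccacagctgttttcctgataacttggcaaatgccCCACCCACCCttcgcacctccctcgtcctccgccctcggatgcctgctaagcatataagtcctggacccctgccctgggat
Muc1: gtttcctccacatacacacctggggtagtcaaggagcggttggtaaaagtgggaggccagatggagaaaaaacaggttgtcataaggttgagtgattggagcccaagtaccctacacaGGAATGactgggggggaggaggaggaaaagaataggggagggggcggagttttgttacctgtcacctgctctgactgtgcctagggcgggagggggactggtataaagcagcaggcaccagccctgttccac
Muc4: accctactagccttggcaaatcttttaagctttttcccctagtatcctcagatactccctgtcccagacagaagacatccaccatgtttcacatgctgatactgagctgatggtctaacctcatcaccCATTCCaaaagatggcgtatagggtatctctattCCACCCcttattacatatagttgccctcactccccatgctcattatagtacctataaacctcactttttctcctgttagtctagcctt
Muc20: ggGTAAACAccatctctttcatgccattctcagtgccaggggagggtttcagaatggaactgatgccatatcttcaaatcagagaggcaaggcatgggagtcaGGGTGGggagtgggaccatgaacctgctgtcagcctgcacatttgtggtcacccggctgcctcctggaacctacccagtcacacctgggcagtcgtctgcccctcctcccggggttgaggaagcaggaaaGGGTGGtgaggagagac
The window of Muc1 holds 1 match to the TEAD letters, beginning 132 bases before the start, and that of Muc4 holds 1, beginning 122 bases before it. Such a match is present in 12.6% of 32536 mouse promoter windows of the same length. The AGATAA letters occur once in the Muc6 window and at 2 places in the Muc2 window, against 9.97% of all windows with at least 1. The CCACCC letters, present in 28.1% of windows, occur in 4 of the 5 windows shown (not in Muc1), those of Muc2 overlapping each other. The AP-1 letters (6.73% of windows) occur in Muc2 and the forkhead letters (3.17%) in Muc20. These are matches of letters and do not show binding.

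The comparison asked how each mucin gene differs between organoids labelled YAP5SA and control. The gland mucin gene Muc6 was almost lost, Muc5b appeared, the membrane mucin genes Muc4 and Muc20 rose 15.03-fold and 10.9-fold, and Muc1, the most abundant member, rose 1.40-fold. Of the 10 members, 7 had enough counts for the test (edgeR quasi-likelihood with Benjamini-Hochberg adjustment over 14058 genes), 5 rose, 1 fell and Muc5ac did not pass. Across all tested genes, 49.1% were called, 23.6% as higher and 25.5% as lower in YAP5SA, and the groups did not overlap in 45.7%. Among the 7 tested members, the 6 called were also those without overlap. The changes of 4 of the 7 were at least 8-fold, against 3.64% of all tested genes. These counts are a description, since 5 of the 7 members reached the filter of 0.609 CPM in all 4 libraries of only 1 group and so passed mainly through the group in which they were higher. The median log2 fold change of the 7 was 1.55, and that of all tested genes was 0.0041.

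**Figure D1:**
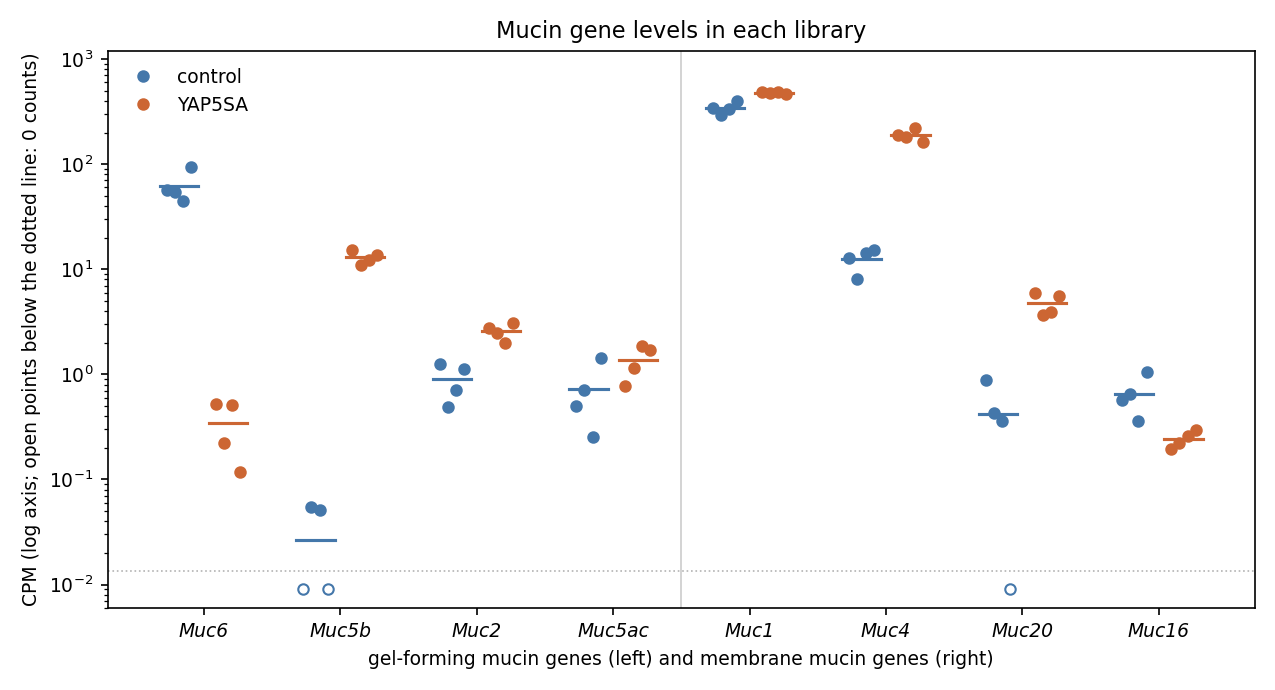
Levels in CPM (log axis) of the 8 mucin genes with any count, gel-forming on the left and membrane on the right of the grey line. Each point is a library (4 control in blue, 4 YAP5SA in orange), short lines are group means, and open points under the dotted line stand for 0 counts. Muc6 stands at 44.5 to 93.5 CPM in controls and under 1 CPM in YAP5SA, Muc5b and Muc4 show the reverse order, and the groups overlap for Muc5ac.

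Among gel-forming mucins, Muc6 was at 56.4, 54.3, 44.5 and 93.5 CPM in controls 1 to 4 and at 0.518, 0.221, 0.515 and 0.118 CPM in YAP5SA 1 to 4. Control 4 was the highest library, and even the lowest control stood far above every YAP5SA library. Muc6 fell by 7.50 ± 0.44 (SE) on the log2 scale (adjusted p = 1.72e-06, edgeR), and the ratio of pooled levels, control over YAP5SA, was 179 (95% counting interval 118 to 286), from 4016 control and 22 YAP5SA counts. Muc6 is the main mucin of gland mucus. Of the other neck and gland markers Gkn3, A4gnt, Glipr1 and Tff2 fell with it and Aqp5 and Cd44 rose. The 7 markers, Muc6 included, summed to 1155 to 1332 CPM in controls and 1167 to 1298 CPM in YAP5SA. Nearly all of the YAP5SA sum was Aqp5 (667 ± 64 CPM) and Cd44 (547 ± 25 CPM). The part of these markers in the fall of Muc6 was not tested.

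Muc5b had 0, 1, 1 and 0 counts in controls 1 to 4 and 238, 197, 191 and 231 counts in YAP5SA 1 to 4, which is 15.4, 10.9, 12.3 and 13.6 CPM. All 4 YAP5SA libraries had it at a like level, and it was at the limit of detection in every control. The ratio of pooled levels, YAP5SA over control, was 436 (95% counting interval 120 to 3609), and the gene was called as higher (adjusted p = 3.59e-13, edgeR quasi-likelihood). Muc5b is the mucin on which airway clearance depends in the mouse. Of 6 markers of airway secretory cells, Cyp2f2 alone passed the filter (16 counts over the controls and 12024 over YAP5SA), Scgb3a2, Bpifa1 and Nkx2-1 had no count in any library, and Scgb1a1 and Scgb3a1 had at most 14 counts over a group. These 6 markers summed to 0.126 to 0.704 CPM in controls and 155 to 207 CPM in YAP5SA, nearly all of it Cyp2f2. Their part in the rise of Muc5b was not tested.

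Muc2 was low in all libraries, at 1.26, 0.487, 0.713 and 1.13 CPM in controls and 2.78, 2.48, 1.995 and 3.06 CPM in YAP5SA. The lowest YAP5SA library was above the highest control, and Muc2 rose 2.93-fold (log2 fold change 1.55 ± 0.30 SE, adjusted p = 0.000365, edgeR). Among the other goblet and intestinal markers, Cdx1, Cdx2 and Atoh1 had no count in any library, and Tff3 and Zg16 had at most 7 counts over a group. Fcgbp rose 23.7-fold, Clca1 fell 2.81-fold and Vil1 fell from 99.9 ± 8.6 to 12.2 ± 3.0 CPM. The 9 markers, Muc2 included, summed to 96.8 to 114 CPM in controls, nearly all of it Vil1, and 45.8 to 56.9 CPM in YAP5SA, most of it Fcgbp. Their part in the rise of Muc2 was not tested.

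Muc5ac, the surface mucin of mature pit cells, was at 0.505, 0.704, 0.255 and 1.43 CPM in controls and 0.777, 1.16, 1.87 and 1.71 CPM in YAP5SA. The groups overlapped, with control 4 above both YAP5SA 1 and YAP5SA 2, and the difference did not pass (log2 fold change 0.99 ± 0.43 SE, adjusted p = 0.0654, edgeR). It did pass without control 4 (log2 fold change 1.498, adjusted p = 0.00714, edgeR), without YAP5SA 1 (0.0383) and without a filter on low counts (0.0332). Over all alternatives its adjusted p ran from 0.00714 to 0.201, by edgeR or DESeq2. In both groups the gene had few counts, 45 in controls and 91 in YAP5SA, while the pit cell markers Gkn1, Gkn2, Tff1, Ctse and Psca all fell. The 7 listed pit cell markers found by symbol, Muc5ac included, summed to 574 to 615 CPM in controls and 114 to 173 CPM in YAP5SA. Nearly all of the YAP5SA sum was Psca (135 ± 28 CPM), which fell 1.94-fold. Another listed pit cell marker, Dpcr1, was not found under that symbol and is not in the sum. Dpcr1 is an earlier symbol of Mucl3, which was counted and fell from 173 ± 42 to 4.57 ± 2.14 CPM.

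In bulk RNA, fewer cells of a type and less RNA per cell cannot be told apart, and this holds for Muc6 and every other gene here.

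The 4 gel-forming mucin genes stand side by side on mouse chromosome 7 (GENCODE M21 annotation of GRCm38), in the order Muc6, Muc2, Muc5ac and Muc5b, within 239.6 kb that hold no other protein-coding gene. Muc6 is on the minus strand and the other three are on the plus strand. The members of this cluster therefore moved in opposite directions at its ends, with Muc6 lower and Muc5b higher in YAP5SA. Ap2a2, which encodes a subunit of the clathrin adaptor AP-2 and lies 0.4 kb from Muc6, rose by 0.27 on the log2 scale (116 ± 13 to 140.4 ± 4.4 CPM, adjusted p = 0.00227, edgeR). Tollip, a regulator of Toll-like receptor signalling 1.7 kb beyond Muc5b, did not pass (88.6 ± 8.1 and 98.7 ± 5.8 CPM, log2 fold change 0.16, adjusted p = 0.0636, edgeR), but passed without a filter (0.022), with scaling by library size alone (0.0234) and without control 1 (0.0478) or control 4 (0.0108).

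**Figure D2:**
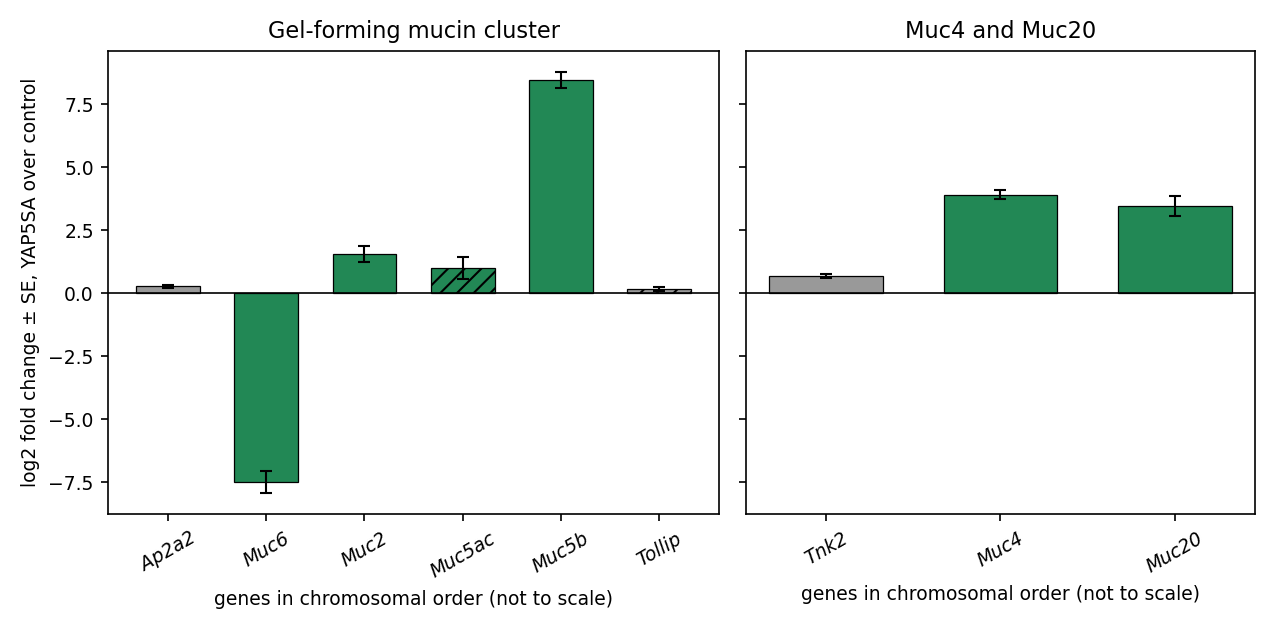
Log2 fold change of YAP5SA over control (bars, with SE) for the gel-forming mucin cluster with its nearest protein-coding neighbours, left, and for Muc4 and Muc20 with Tnk2, right, in chromosomal order and not to scale. Mucin genes are green and neighbours grey, and hatched bars did not pass the test. The neighbours Ap2a2 and Tollip stay near 0 (0.27 and 0.16) beside Muc6 at −7.50 and Muc5b at 8.45, a fitted value that rests on 2 control counts and is no bound.

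Among membrane mucins, Muc1 was at 339, 296, 332 and 396 CPM in controls and 489.5, 474, 481 and 461 CPM in YAP5SA. Every YAP5SA library exceeded every control, by a modest margin, and Muc1 rose 1.40-fold (log2 fold change 0.48 ± 0.07 SE, adjusted p = 1.38e-05, edgeR). Muc1 lines the apical membrane of most glandular epithelia, and its cytoplasmic tail takes part in signalling. The spread between libraries was 12.1% of the mean in controls and 2.48% in YAP5SA. The neighbours of Muc1, the mitochondrial import gene Mtx1 and the tripartite motif gene Trim46, did not pass the test (log2 fold changes 0.01 and −0.18, adjusted p = 0.929 and 0.455, edgeR).

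Muc4, a large membrane mucin that binds ERBB2, was at 12.8, 8.01, 14.4 and 15.3 CPM in controls and 190.2, 182, 219.7 and 162 CPM in YAP5SA. The lowest YAP5SA library stood over 10 times above the highest control. Muc4 rose 15.03-fold (log2 fold change 3.91 ± 0.17 SE, adjusted p = 4.77e-08, edgeR), from 838 to 12402 counts over the groups. Muc4 is known from stratified as well as glandular epithelia, and of 5 tested squamous forestomach markers Krt4 and Sprr3 rose, Ivl fell and Krt13 and Lor did not pass, while Krt5, Krt14 and Trp63 were close to 0 (at most 36 counts over a group). The 8 squamous markers summed to 126 to 181 CPM in controls and 913 to 1037 CPM in YAP5SA, nearly all of it Krt4, and their part in the rise of Muc4 was not tested.

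Muc20, a smaller membrane mucin whose human counterpart binds the receptor MET, was at 0.884, 0.433, 0.356 and 0 CPM in controls and 5.89, 3.64, 3.93 and 5.59 CPM in YAP5SA. Control 4 had no count, and no control came near the YAP5SA libraries. Muc20 rose 10.9-fold (log2 fold change 3.45 ± 0.40 SE, adjusted p = 2.37e-06, edgeR), with a pooled YAP5SA over control ratio of 11.0 and a 95% interval, for counting error, of 7.50 to 16.7. Muc4 and Muc20 overlap on chromosome 16 on opposite strands. They share 627 bases of exon, which is 15.6% of the exon length of Muc20 and 5.33% of that of Muc4. How the counting treated strand is not given in the sources used here, so reads of Muc4 and Muc20 in that stretch may have been counted on either gene or discarded. Muc4 had 12402 and Muc20 313 counts over the YAP5SA libraries, and the part of Muc4 reads in the rise of Muc20 was not tested. Tnk2, a kinase gene 52.4 kb before Muc4, rose by 0.68 on the log2 scale (38.0 ± 4.7 to 60.8 ± 3.2 CPM, adjusted p = 1.27e-06, edgeR), and Smbd1, the nearest coding gene beyond Muc20, was too low to test.

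Muc16, the mucin that carries the CA125 antigen in humans and binds mesothelin, was below the filter. It had 9, 12, 7 and 14 counts in controls and 3, 4, 4 and 5 counts in YAP5SA. Every YAP5SA library was lower than every control in CPM, and the ratio of pooled levels, control over YAP5SA, was 2.58 (95% counting interval 1.42 to 4.91). Without a filter, which gave 27156 tested genes, Muc16 did not pass (log2 fold change −1.36 ± 0.59 SE, adjusted p = 0.0683, edgeR), nor with DESeq2 (adjusted p = 0.0688).

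The membrane mucin genes Muc13 (adult stomach and intestine) and Muc3 (intestinal brush border) had 0 counts in all 8 libraries. By counting error alone, this allows levels of up to 0.0446 CPM over the controls and 0.0454 CPM over YAP5SA. The annotation and the treatment of reads mapping to several places are not given, so reads of Muc13 or Muc3 may also have gone uncounted. The nearest coding genes around Muc13 were counted and changed. Heg1, a transmembrane receptor gene, rose by 1.62 and the integrin gene Itgb5 by 1.31 on the log2 scale. Beside Muc3, the ubiquitin ligase gene Trim56 fell by 0.48 on the log2 scale and the mucin-like gene Muc3a was also listed at 0.

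Levels of different members were compared per kilobase of annotated exon. The lengths are from GENCODE M21 (GRCm38), while reads were counted on build mm9 with an annotation that is not given. For any member the length may therefore differ from the one over which reads were counted. In controls the order was Muc1 (145 ± 18 CPM per kb), Muc6 (6.64 ± 2.30), Muc4 (1.07 ± 0.28), Muc2 (0.126 ± 0.050), Muc20 (0.104 ± 0.090), Muc5ac (0.0672 ± 0.0468) and Muc16 (0.0249 ± 0.0110), with Muc5b at 0.0018 CPM per kb. In YAP5SA it was Muc1 (203 ± 5 CPM per kb), Muc4 (16.0 ± 2.0), Muc20 (1.18 ± 0.28), Muc5b (0.872 ± 0.129), Muc2 (0.362 ± 0.064), Muc5ac (0.128 ± 0.047), Muc6 (0.0366 ± 0.0219) and Muc16 (0.0092 ± 0.0017). In controls Muc2 was above Muc20 in 2 of 4 libraries and Muc20 above Muc5ac in 3 of 4, so their order is not resolved. The ranges of Muc5ac and Muc16 in controls and of Muc20 and Muc5b in YAP5SA overlapped across libraries, but the first of each pair was higher within all 4. Muc1 took 94.8% ± 0.9 of the summed mucin level per kb in controls and 91.6% ± 0.7 in YAP5SA, and Muc4 went from 0.695% ± 0.132 to 7.22% ± 0.76. The annotated coding sequence of Muc2 (2767 bases) is not a whole number of codons, so its model is incomplete and its level per kb is even less certain than the others.

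Within the gel-forming members the makeup was almost exchanged. Muc6 held 97.2% ± 0.5 of their summed level per kb in controls and 2.62% ± 1.51 in YAP5SA. Muc5b held 0 to 0.0697% in the controls and 60.2% to 66.5% in YAP5SA, Muc2 1.89% ± 0.73 and 25.9% ± 3.6, and Muc5ac 0.907% ± 0.359 and 9.29% ± 3.52. The order of Muc5b and Muc2 in YAP5SA depended on the length used. Per kb of coding sequence Muc5b held 45.01% ± 3.20 and Muc2 46.3% ± 4.8, with Muc2 above Muc5b in 2 of 4 libraries. The summed level itself was 6.84 ± 2.37 CPM per kb in controls and 1.40 ± 0.16 in YAP5SA, while Muc2 rose 2.93-fold and Muc5ac did not pass the test.

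**Figure D3:**
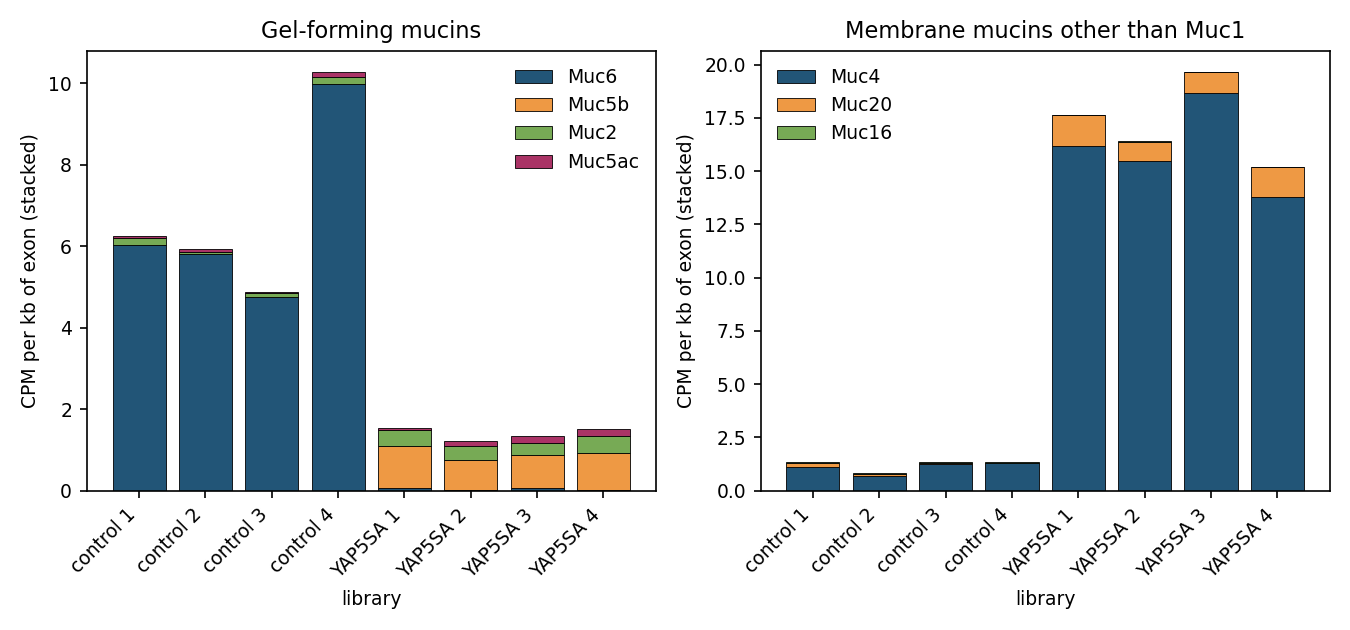
Stacked CPM per kilobase of exon in each of the 8 libraries for the 4 gel-forming mucins, left, and for Muc4, Muc20 and Muc16, right. Control bars on the left are nearly all Muc6, and control 4 is the tallest. The YAP5SA bars are shorter on the left, with Muc5b as the largest part on exon lengths (62.2%, against 45.01% on coding lengths), and taller on the right, where Muc4 makes up most of the height.

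Other genes that encode mucin-type proteins were tested from a list of 11, of which 10 symbols were in the table and 4 passed the filter. Mucl3, a mucin-like membrane protein gene that overlaps Sfta2 on the other strand, fell by 5.23 on the log2 scale, from 173 ± 42 to 4.57 ± 2.14 CPM (adjusted p = 8.02e-06, edgeR). Mcam, a cell adhesion molecule also called Muc18, fell from 23.8 ± 2.0 to 6.87 ± 0.98 CPM. Cd164, a sialomucin of many cell types, had 364 ± 6 and 375.5 ± 15.8 CPM and did not pass (adjusted p = 0.479, edgeR). Ovgp1 was low and its call (log2 fold change 0.69, adjusted p = 0.0483, edgeR) was lost without any library other than control 2 (adjusted p = 0.06 to 0.129), with DESeq2 (0.108) and with no filter (0.114). Muc15, Muc21 and Emcn had at most 12 counts over a group, and Muc19, Mucl1 and Mucl2 none.

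The genes that direct and fold mucins mostly fell with Muc6. The gene lists were chosen with earlier results of these data known, so the counts for this list and those that follow are a description. Of 11 tested genes of mucous cell transcription and folding, 7 fell, 3 rose and 1 did not pass, with a median log2 fold change of −4.44 (over all tested genes, 25.5% fell and 23.6% rose). Agr2, a disulfide isomerase of the endoplasmic reticulum that mouse intestine needs to make Muc2, fell from 40.1 ± 6.5 to 1.13 ± 0.25 CPM. The forkhead factors Foxa3 and Foxa2 fell 49.8-fold and 21.7-fold, while Foxa1 rose by 0.19 on the log2 scale. Spdef, the regulator of goblet and mucous cell maturation, named after its values were seen, fell from 16.8 ± 3.3 to 0.263 ± 0.189 CPM. Against this direction, the stress-sensing factor Creb3l1 rose 1.96-fold, to 26.2 ± 3.0 CPM, and the zinc finger factor Klf4 rose 5.59-fold, to 122 ± 4 CPM. The largest adjusted p of these 7 genes was 0.00394 (Foxa1, edgeR).

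Of 8 tested proteins secreted together with mucins, 7 fell and 1 rose, again beside 25.5% and 23.6% of all tested genes, with a median log2 fold change of −6.80. The gastrokines Gkn1 and Gkn2 and the trefoil peptide gene Tff1, which accompany surface mucus, fell, with log2 fold changes of −9.09, −8.80 and −6.24. Fcgbp, a large protein with von Willebrand domains that is found bound to Muc2 in intestinal mucus, rose 23.7-fold, from 1.49 ± 0.65 to 34.0 ± 4.4 CPM (adjusted p = 2.42e-12, edgeR).

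O-glycosylation genes mostly changed by smaller folds. Of 19 tested, 12 fell and 5 rose (all tested genes: 25.5% and 23.6%), with a median log2 fold change of −0.38, the same with A4gnt, which had 0 counts in YAP5SA, at its bound of at least 393-fold lower. The initiating transferases Galnt4 and Galnt10 fell 5.09-fold and 4.78-fold, and C1galt1, the core 1 synthase, fell by 0.75 on the log2 scale. St3gal1, which caps core 1 with sialic acid, rose from 3.55 ± 0.63 to 20.6 ± 2.5 CPM, and the core 2 enzymes Gcnt4 and Gcnt1 rose 2.53-fold and 1.34-fold (adjusted p between 4.31e-15 and 2.64e-05 for these 6 genes, edgeR). B3gnt3 and the fucosyltransferase gene Fut1 were called at log2 fold changes of 0.16 and 0.62 (adjusted p = 0.0479 and 0.0251, edgeR). B3gnt3 was lost with DESeq2 (adjusted p = 0.0622) and without any library other than control 4 (0.0518 to 0.179, edgeR), and Fut1 without control 2, control 3, YAP5SA 1, YAP5SA 2 or YAP5SA 4 (0.0501 to 0.0891). With B3gnt3 and Fut1 both lost, as without control 2, control 3, YAP5SA 1, YAP5SA 2 or YAP5SA 4, 3 genes of the list rose.

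Of 11 genes of mucin granule exocytosis, 6 fell, 3 rose and 2 did not pass, where 49.1% of all tested genes were called, with a median log2 fold change of −0.12. Stxbp2, 1 of the 6, was called at a log2 fold change of −0.12 (adjusted p = 0.0498, edgeR). Over the alternatives the number that fell ran from 4 to 6. The vesicle GTPase gene Rab3d fell from 149 ± 13 to 88.5 ± 7.4 CPM, and the Rab27 effectors Sytl2 and Sytl4 fell 2.08-fold and 2.03-fold. Unc13d, a priming factor, rose from 18.9 ± 2.1 to 37.6 ± 2.3 CPM, and Rab27a rose 1.32-fold. Marcks, which links granules to actin, rose by 0.14 on the log2 scale (adjusted p = 0.026, edgeR), a call lost without control 2, control 3, YAP5SA 1 or YAP5SA 2 (0.07 to 0.0946).

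Among partners and sheddases of membrane mucins, 6 of 15 rose, 6 fell and 3 did not pass, with a median log2 fold change of 0.09. Of all tested genes 23.6% rose and 25.5% fell. The ERBB receptor genes Erbb2 and Egfr rose 1.45-fold and 1.41-fold, and the receptor gene Met rose 1.38-fold. Lgals3, the lectin galectin-3 that binds membrane mucin glycans, rose 1.69-fold, and Rdx, a linker between membrane proteins and actin, rose from 195 ± 4 to 442 ± 7 CPM. Mmp14, a metalloproteinase that sheds MUC1 in human cells, rose 26.9-fold, to 159 ± 1 CPM, and the protease gene Adam10 fell from 361 ± 23 to 182 ± 12 CPM. Ctnnb1 and Ezr fell 1.27-fold each, Adam9 fell 1.41-fold and Adam17 fell 1.23-fold. Msln, the mesothelin that Muc16 binds, fell from 3246 ± 208 to 1441 ± 141 CPM. Of the other mesothelial markers Upk3b rose from 4.23 ± 0.30 to 18.6 ± 2.5 CPM and Lrrn4 rose 2.04-fold (adjusted p = 1.47e-10 and 0.0109, edgeR), Upk1b did not pass, and Wt1 had at most 3 counts over a group. The 5 mesothelial markers summed to 3114 to 3563 CPM in controls and 1317 to 1656 CPM in YAP5SA, nearly all of it Msln, and their part in these values was not tested.

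**Figure D4:**
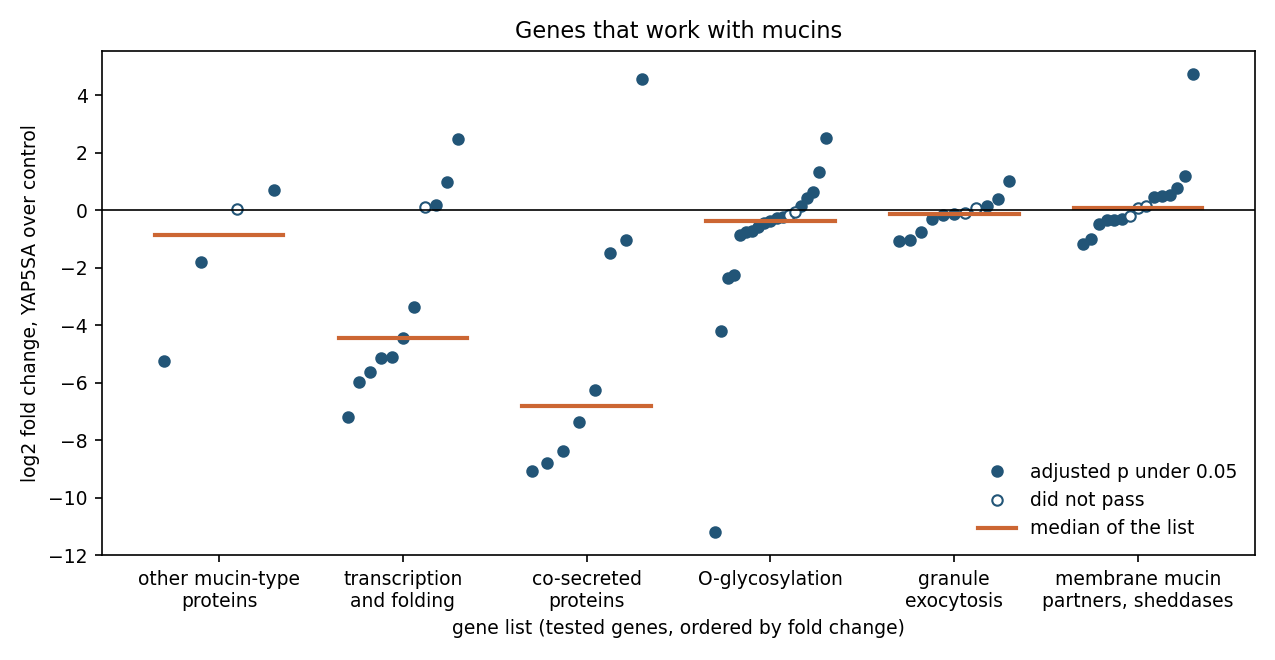
Log2 fold change of YAP5SA over control for each tested gene of 6 lists, ordered within a list, with filled points for adjusted p under 0.05, open points for genes that did not pass, and orange lines for list medians. The co-secreted list has the lowest median (−6.80) and the transcription and folding list the next (−4.44), while the O-glycosylation, exocytosis and partner lists lie near 0. The lowest point, A4gnt in the O-glycosylation list, has 0 counts in YAP5SA, so its fitted value is no bound.

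The genes with profiles most like a changed member over the 8 libraries were found by the root mean square difference of log2 CPM, each centred on its own mean. For Muc6 these were Capn6 (0.587), Ndnf (0.598) and Myrf (0.673), with log2 fold changes of −6.53, −7.09 and −8.13. For Muc5b they were Sema3a (0.553), Aqp1 (0.571) and Lbp (0.664). Their log2 fold changes of 5.67, 5.87 and 5.29 were smaller than the 8.45 of Muc5b. Only genes above a floor on mean log2 CPM were candidates, and the prior count narrows differences that rest on few counts. For Muc4 the genes were Cwh43 (0.228), Anxa9 (0.266) and Flrt2 (0.268), with log2 fold changes of 3.96, 3.48 and 3.74. For Muc1 they were Hk1 (0.0195), Niban2 (0.038) and Mbp (0.0443), with 0.50, 0.51 and 0.43. All 8 libraries and their scaling are shared by these profiles, and the likeness is mostly that of the difference between groups.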

How the data were processed

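Total RNA of organoids was sequenced in 8 libraries, read from both ends (150 bp each), per the labels' protocols. The deposited values are read counts per gene, not normalized, made by the authors with cutadapt, HISAT2 2.0.1 and HTSeq 0.6.1 on build mm9, per the submitters' processing notes. The sources used here give neither the annotation nor the strand setting, nor how reads mapping to several places, such as mucin repeats, were treated.

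Of 56691 rows, 2639 without a gene name (0.19% to 0.221% of counts) were left out and rows sharing a symbol were summed. Genes passing filterByExpr (minimum count 10, minimum total 15) were scaled by TMM; the quasi-likelihood test (robust glmQLFit, then glmQLFTest; edgeR 4.0.16, R 4.3.3) had genotype as its only term. Calls are at an adjusted p under 0.05 (Benjamini-Hochberg). Errors after ± are SD over 4 libraries unless marked SE, taken from the F statistic as |log2 fold change| over its root. CPM use TMM-scaled library sizes. Exon lengths, chromosomes and neighbours come from GENCODE M21 (GRCm38) by symbol and promoters from RefSeq. Profile likeness used log2 CPM with a prior count. Intervals are exact and, like the floor of 3 counts, cover counting error only. Members and gene lists were chosen with earlier results of these data known. The named genes are all members, up to 4 genes per pathway list with the smallest adjusted p, genes against a list's main direction (applied to called genes only), the nearest coding neighbours and the 3 most alike profiles of called members at 5 CPM or more. The list of partners and sheddases, tied between directions, was treated as falling, so all its rising genes were named. Its remaining falling genes were named as well. Cell type markers come from separate lists, and Spdef was added after its values were seen. Alternatives were DESeq2 1.42.0, other scalings, no filter, a block, a threshold of 0.01, unsummed rows, other lengths and each library left out.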

Additional observations from a re-analysis of the deposited data

Results flagged for a closer look

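Within groups of 4 libraries, 3 of 130 gene and group pairs had a library that stood apart from the others by Dixon's ratio, where chance gives about 1 in 20, and none of the 3 was a mucin gene. Unc13d was at 34.1 CPM in YAP5SA 3 and 38.6 to 39 CPM in the other YAP5SA libraries. Rdx was at 452 CPM in YAP5SA 4 and 437 to 439 CPM in the others. Anxa9, whose profile resembles that of Muc4, was at 1.95 CPM in control 2 and 3.08 to 3.16 CPM in the other controls.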

How the results depend on the processing

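The count of changed mucin genes (6) stayed at 6 or 7 under all alternatives, 6 to 7 with single libraries left out, the added gene being Muc5ac. Over 105 values of the 7 tested mucin genes under 15 alternatives each, direction never changed and only the 3 of Muc5ac given above crossed the threshold. The log2 fold change of Muc6 ran from −7.77 to −7.22, of Muc5b from 8.13 to 8.85, of Muc4 from 3.73 to 4.01, of Muc20 from 3.12 to 4, of Muc2 from 1.34 to 1.76 and of Muc1 from 0.42 to 0.57. Among 57 other named genes followed through the alternatives, 32 of 855 values lost and 4 gained a call. Mtx1, which did not pass, turned sign without control 2, control 4, YAP5SA 3 or YAP5SA 4, with log2 fold changes from −0.02283 to 0.04179 when single libraries were left out. Shares of the summed mucin level moved without scaling by length, by construction, for Muc1 to 81.74% in controls and 69.39% in YAP5SA, for Muc4 to 3.003% in controls and 27.35% in YAP5SA, and for Muc6 in controls to 14.61%. With coding lengths these 5 shares moved by less than 1 SD. Within the gel-forming level, coding lengths moved Muc2 to 4.431% in controls and 46.27% in YAP5SA, Muc5b in YAP5SA to 45.01% and Muc6 in controls to 94.68%, and no length scaling moved Muc2 and Muc5b in YAP5SA to 14.92% and 75.04%. Scaling by library size alone shifted the median of all genes by 0.03 on the log2 scale. Same-numbered libraries did not deviate together (correlations −0.05, −0.08, 0.09 and 0.04). With the replicate number as a block 6586 genes, 6 mucin genes and 54 of the mucin pathway genes (56 without it) were called. Among the 57 other named genes, the calls of Ovgp1 (adjusted p = 0.0643, edgeR) and Marcks (0.0522) were lost with the block. Muc5ac, Muc2 and Muc16 are limited by depth, with at most 171 counts over a group.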
